A study of Mus musculus with 9 samples.

Results

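CXC chemokines are small secreted proteins that guide white blood cells along gradients bound to the vessel wall. Cxcl1, Cxcl2 and Cxcl5 act on the receptor CXCR2 and draw neutrophils. Cxcl9 and Cxcl10 are induced by interferons and draw activated T cells through CXCR3. Cxcl12 retains and attracts many cell types through CXCR4, Cxcl13 draws B cells through CXCR5, and Cxcl14 is made constitutively by many epithelia and stromal cells. In atherosclerosis, endothelium, smooth muscle cells and plaque macrophages are known sources of several of these ligands. The 8 genes were taken from the deposited expression table by name, and all 8 were found among its 21989 genes.

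RNA sequencing was done on mouse aortic arch, in 9 libraries that form 3 groups of 3. High dose libraries came from ApoE-/- mice, which lack apolipoprotein E, on a high-fat diet for 15 weeks with 5.12 g/kg/day of ZCL by gavage. ZCL is the label's name for the tested preparation, and the series title names the plant Ziziphora clinopodioides Lam. Model libraries came from ApoE-/- mice on the same diet without ZCL, and control libraries from C57BL/6J mice on standard diet. Genotype and diet therefore differed together between the control group and both others, and neither the age nor the sex of the mice is given in the labels. The labels give all 9 libraries the same batch number. They do not say whether each library is a different mouse or repeats of 1 pool. Every p-value below therefore refers to the variation among libraries. That variation includes the differences in neighbouring tissue within groups given below, and how much of it lies between mice is not known.

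The deposited values are FPKM, fragments scaled by gene length and by library size, which can be compared between genes as a level per length. Relative depth, read from the steps between low FPKM values, ran from 56.4% of the deepest library in control 2 to 100% in model 1, and absolute depth is not known. Apoe stood between 18.9 and 93.7 FPKM in the 6 ApoE-/- libraries and between 339.9 and 1006 FPKM in the 3 control libraries. Libraries of a group differed in neighbouring tissue. The summed level of 8 heart muscle genes was 9662 and 16216 FPKM in high dose 2 and 3 and 26924 and 7300 FPKM in control 1 and 2, against 24.9 to 83.1 FPKM in the other 5. Airway and lung genes summed to 24354 FPKM in high dose 2 and 8558 FPKM in control 2, and to at most 79.6 FPKM elsewhere. Brown fat genes summed to 14567.5 FPKM in control 3 and to at most 5254 FPKM elsewhere. Skeletal muscle genes summed to 8857 FPKM in high dose 2 and to at most 381 FPKM elsewhere. Nerve genes summed to 2747, 260 and 19.2 FPKM in high dose, 7.66, 5.60 and 9.29 FPKM in model and 122, 714 and 177 FPKM in control, so that all model libraries lay below all others. Contractile smooth muscle genes were present in all libraries, at a sum of 463 to 2721 FPKM in high dose, 1821 to 4453 FPKM in model and 1643 to 3161 FPKM in control. In bulk tissue, fewer cells of a type and less RNA per cell cannot be told apart.

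The sequences shown here are the stretches just before the start of Cxcl1 and Cxcl2, which lie 10755 bases apart on chromosome 5. Those of Cxcl9 and Cxcl10, a second neighbouring pair with 18558 bases between them, are shown as well. They were picked because the members of the second pair differed in opposite directions in both comparisons with high dose, though not between model and control. The part of these sequences in any difference was not tested. Each line gives the 250 bases before the RefSeq start on GRCm38.p6, 5′ to 3′ on the strand of the gene, and capitals mark matches to 2 motifs searched on both strands. These are a kappaB motif spelt GGGNNNTTCC, bound by NF-kB, and an interferon response element spelt GAAANNGAAA.
Cxcl1, chr5:90890995-90891244, plus strand: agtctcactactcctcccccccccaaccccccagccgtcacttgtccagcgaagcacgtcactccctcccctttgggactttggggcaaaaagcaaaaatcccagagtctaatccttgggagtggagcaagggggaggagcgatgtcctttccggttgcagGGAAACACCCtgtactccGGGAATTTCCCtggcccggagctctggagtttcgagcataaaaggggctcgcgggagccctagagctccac
Cxcl2, chr5:90903649-90903898, plus strand: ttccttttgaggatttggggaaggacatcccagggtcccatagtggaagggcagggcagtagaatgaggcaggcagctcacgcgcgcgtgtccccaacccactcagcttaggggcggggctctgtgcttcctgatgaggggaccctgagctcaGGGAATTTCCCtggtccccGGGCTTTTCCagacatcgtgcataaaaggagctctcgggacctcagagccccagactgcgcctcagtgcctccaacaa
Cxcl9, chr5:92328080-92328329, minus strand: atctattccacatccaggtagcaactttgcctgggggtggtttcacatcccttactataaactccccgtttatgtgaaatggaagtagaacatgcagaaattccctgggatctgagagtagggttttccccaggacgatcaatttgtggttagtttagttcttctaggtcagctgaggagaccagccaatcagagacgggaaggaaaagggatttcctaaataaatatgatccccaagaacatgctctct
Cxcl10, chr5:92348890-92349139, minus strand: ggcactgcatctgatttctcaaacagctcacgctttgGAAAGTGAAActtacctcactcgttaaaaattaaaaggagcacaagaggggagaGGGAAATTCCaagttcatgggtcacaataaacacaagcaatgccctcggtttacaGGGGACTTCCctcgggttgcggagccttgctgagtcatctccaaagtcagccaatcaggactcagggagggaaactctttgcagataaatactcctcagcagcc

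The kappaB letters were found before Cxcl1, Cxcl2 and Cxcl10, in 3 of the 7 members for which RefSeq gave a start. They occur in 4.65% of all 32851 windows of that length. Before Cxcl1 and Cxcl2 the run GGGAATTTCCC holds a forward and a reverse match that overlap, at 71 to 61 bases before the start of Cxcl1 and 97 to 87 bases before that of Cxcl2. The interferon response element was found before Cxcl10, 213 to 204 bases from its start, and before Cxcl14, and occurs in 2.98% of windows. The last of the 3 motifs, the interferon gamma activated site TTCNNNGAA, was found before Cxcl14 only and occurs in 7.02% of windows. The window of Cxcl9 held none of the 3 motifs as spelt. A match is a description of letters, not of binding.

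Level per length differed widely between the 8 genes. Averaged over the 9 libraries, Cxcl12 stood at 40.0 FPKM and Cxcl13 at 37.2 FPKM. Cxcl14 averaged 12.6, Cxcl1 11.1, Cxcl9 8.43, Cxcl2 8.33 and Cxcl10 5.96 FPKM. Cxcl5 averaged 0.108 FPKM and reached 1 FPKM in 0 libraries. Differences were tested with limma on log2(FPKM + 1) over the 12895 genes that reached 1 FPKM in at least 3 libraries, which 7 of the 8 members did. Fold changes on this scale are understated for low genes.

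**Figure D1:**
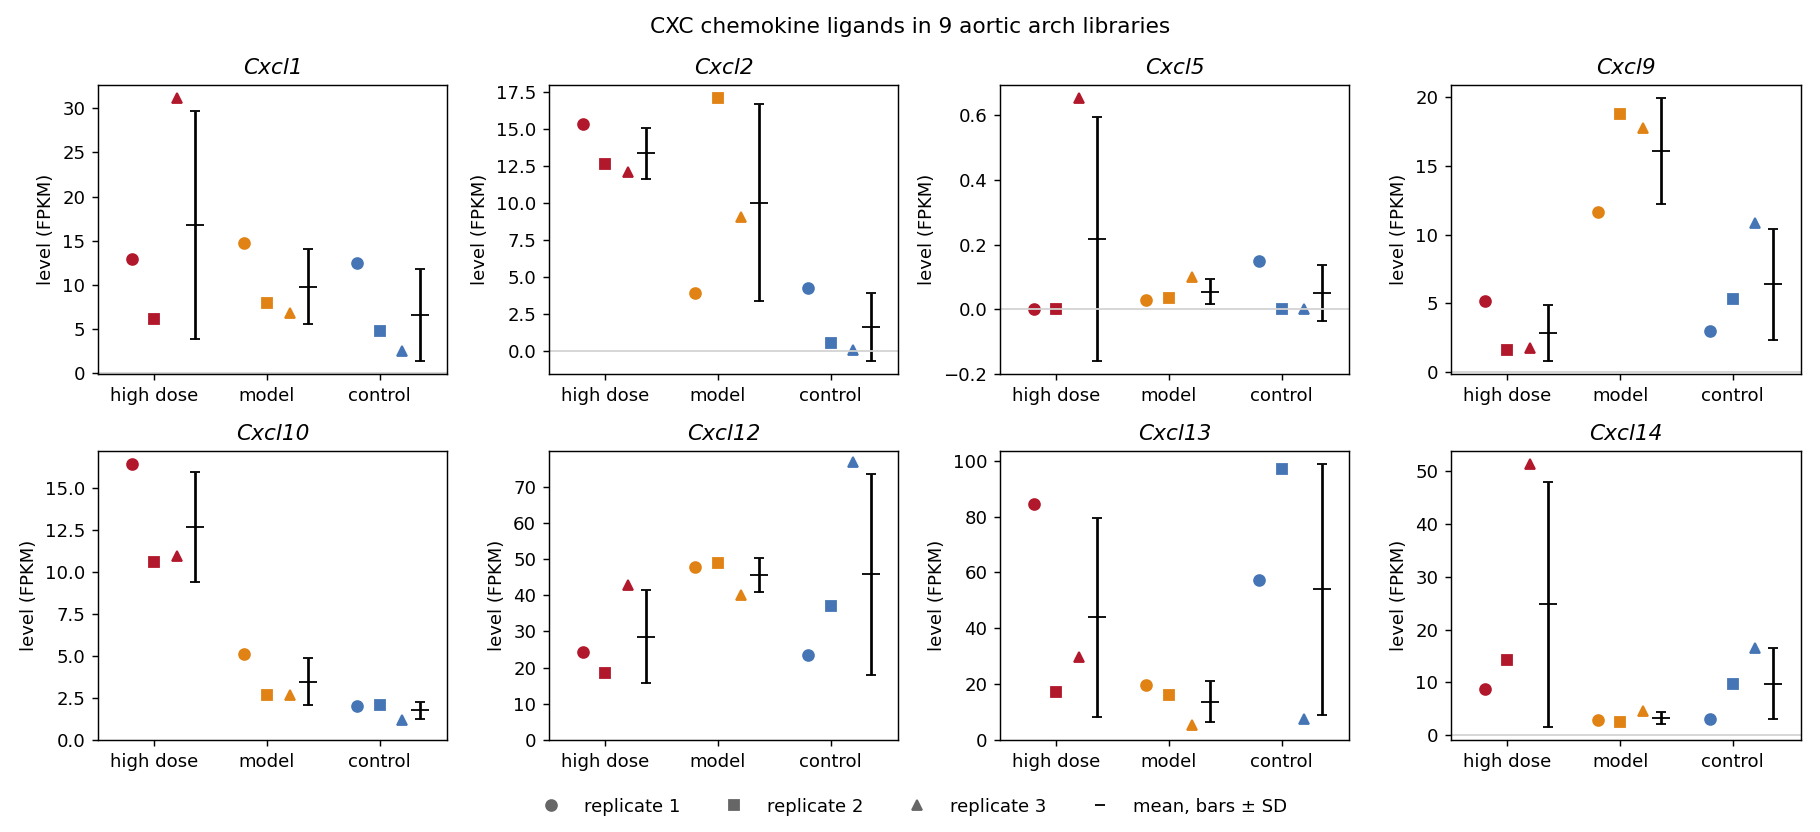
FPKM of the 8 CXC chemokine ligands in each library, by group, with the mean and SD of 3 libraries at the right of each group (each panel has its own linear axis). Cxcl10 lies higher in all 3 high dose libraries than in any other, and Cxcl9 higher in all 3 model libraries than in any other.

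The clearest separation between groups was that of Cxcl10, the interferon-inducible T cell attractant also known as IP-10. Cxcl10 had 16.4, 10.6 and 10.9 FPKM in the high dose libraries 1, 2 and 3. It had 5.12, 2.66 and 2.66 FPKM in the model libraries, and 2.04, 2.06 and 1.19 FPKM in the control libraries. None of the 3 groups overlapped with another, in the order high dose, model and control. The log2 difference between high dose and control was 2.30 ± 0.29 (SE), the smallest p of all 12895 genes, with a limma adjusted p = 0.330. Between high dose and model it was 1.63 ± 0.29 (SE; adjusted p = 0.159), and between model and control 0.67 ± 0.29 (SE; adjusted p = 0.761).

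Cxcl10 is at chromosome 5, 92346638 to 92348889 in GRCm38, on the minus strand. It lies inside Art3, a gene on the plus strand at 92331827 to 92414628, 1 exon of which overlaps exons of Cxcl10. The strand setting of the counting is not given in the sources used here, so fragments of the pair may not be told apart. Art3 stood at 47.7, 107 and 114 FPKM in high dose, 16.3, 36.6 and 40.0 FPKM in model and 204, 58.3 and 32.8 FPKM in control. Like Cxcl10, Art3 lay higher in all high dose than in all model libraries, as did 11.7% of all genes tested, while control overlapped with both. The library highest in Art3, control 1, held 2.04 FPKM of Cxcl10. The library highest in Cxcl10, high dose 1, held 47.7 FPKM of Art3. High dose 1 was also low in heart muscle and airway genes, at sums of 24.9 and 16.2 FPKM. With the heart list mean as a covariate the difference between high dose and model was 1.63 on the log2 scale. The part of Art3 fragments and of airway tissue in the Cxcl10 difference was not tested.

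Cxcl9, the second CXCR3 ligand and also known as MIG, differed in the other direction from Cxcl10 in both comparisons with high dose, and in the same direction between model and control. It had 5.19, 1.61 and 1.71 FPKM in the high dose libraries, 11.7, 18.8 and 17.8 FPKM in the model libraries and 2.96, 5.33 and 10.8 FPKM in the control libraries. All 3 model libraries lay above all others, while high dose and control overlapped. The same split was seen in haemoglobin transcripts, at 0.569% to 4.60% of summed FPKM in high dose, 4.97% to 14.3% in model and 2.00% to 3.70% in control. The nerve genes above split in the opposite direction, with all model libraries below all others. The part of haemoglobin and nerve transcripts in Cxcl9 was not tested. The log2 difference between high dose and model was -2.25 ± 0.47 (SE; limma adjusted p = 0.172), and between model and control 1.33 ± 0.47 (SE; adjusted p = 0.713). High dose and control differed by -0.92 ± 0.47 (SE; adjusted p = 0.888). The margin between the model and control groups was small, at 11.7 FPKM in model 1 against 10.8 FPKM in control 3. With the heart list covariate the difference between model and control was 0.61, while that between high dose and model was -1.56. Macrophages are a known source of Cxcl9, and 8 macrophage genes, all tested, summed to 536, 822 and 2630 FPKM in high dose, 5425, 3516 and 1322 FPKM in model and 351, 724 and 220 FPKM in control. The highest sums stood in model 1 and model 2, and model 3 lay below high dose 3. Cxcl9 was 1.71 FPKM in high dose 3 and 17.8 FPKM in model 3. The part of macrophage content in Cxcl9 was not tested.

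The ratio of Cxcl10 to Cxcl9 within a library does not depend on the scaling between libraries. It was 3.16, 6.56 and 6.38 in high dose, 0.439, 0.142 and 0.150 in model and 0.688, 0.387 and 0.110 in control. Cxcl10 therefore exceeded Cxcl9 in 3 of 3 high dose libraries and lay below it in the other 6. This ratio was chosen after the values were seen, and no test was made of it.

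**Figure D2:**
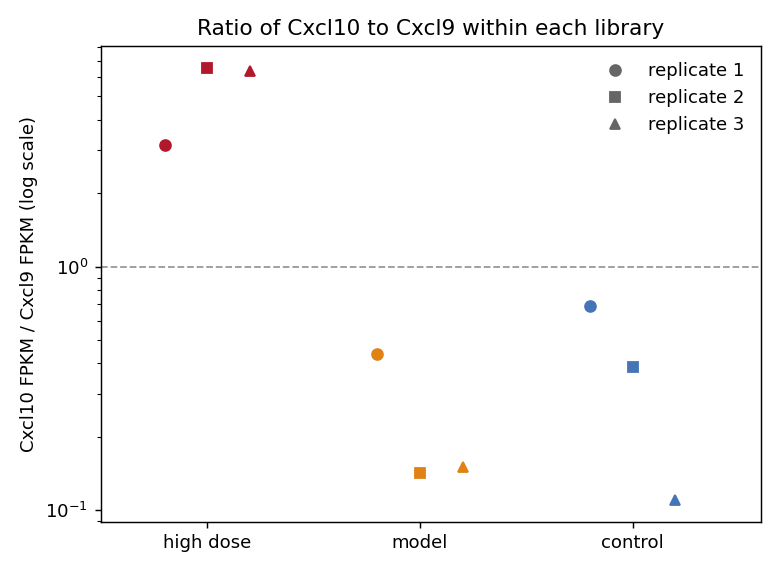
Ratio of Cxcl10 FPKM to Cxcl9 FPKM in each library on a log axis, by group, with the dashed line at equal levels. The 3 high dose libraries lie between 3.16 and 6.56, and the model and control libraries between 0.110 and 0.688.

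Genes known to respond to interferon gamma were read beside this pair. Of 11 listed, 9 were tested, and their median log2 difference between high dose and model was -0.53, with 7 lower and 2 higher, while the median of all genes tested was 0.00080. Gbp2, a guanylate-binding protein of interferon responses, had 17.3, 15.5 and 14.2 FPKM in high dose, 30.8, 40.5 and 45.0 FPKM in model and 19.4, 30.9 and 16.6 FPKM in control. Its high dose and model groups did not overlap (-1.24 ± 0.26, SE; limma adjusted p = 0.172). Gbp4 and Irgm1, named after their values were seen, also lay lower in all high dose than in all model libraries, as did 10.9% of all genes. Irf1, an interferon-induced transcription factor, had 18.9 to 22.3 FPKM in high dose, 19.0 to 26.6 FPKM in model and 14.2 to 31.7 FPKM in control. Between model and control the list median was 0.50, with 8 of 9 higher and 0 free of overlap, and between high dose and control -0.035, with 6 of 9 lower. Over all 3 comparisons 0 of the 9 passed at an adjusted p under 0.05. Ifng itself was at most 2.22 FPKM, in control 2, and at most 0.114 FPKM elsewhere.

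CXCR3, the receptor shared by both ligands, is carried by activated T cells. Cxcr3 had 1.94, 1.67 and 1.17 FPKM in high dose, 1.41, 1.02 and 0.580 FPKM in model and 0.271, 1.62 and 0.335 FPKM in control. The groups overlapped, and the log2 difference between high dose and control was 0.65 ± 0.34 (SE; limma adjusted p = 0.888). The summed level of 8 T cell genes ran from 6.16 to 33.9 FPKM in high dose, 7.10 to 14.2 FPKM in model and 1.39 to 86.3 FPKM in control, and 6 of the 8 were tested. Cd3g and Cd4 were the most abundant of them. Control 2 held the highest T cell sum and 2.06 FPKM of Cxcl10. High dose 1, next in T cell sum at 33.9 FPKM, held the highest Cxcl10, 16.4 FPKM. The part of T cell content in Cxcl10 was not tested.

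The neutrophil attractants Cxcl1 and Cxcl2 gave unlike patterns. Cxcl2, also known as MIP-2, had 15.3, 12.6 and 12.1 FPKM in high dose, 3.89, 17.1 and 9.04 FPKM in model and 4.25, 0.543 and 0.0711 FPKM in control. All high dose libraries lay above all control libraries, and model 1 lay below control 1. The log2 difference was 2.80 ± 0.62 (SE) between high dose and control, 2.23 ± 0.62 between model and control and 0.57 ± 0.62 between high dose and model, with limma adjusted p = 0.608, 0.688 and 0.690. The last difference was 0.085 without model 1 and 1.03 without model 2. Within its group, high dose spanned 12.1 to 15.3 FPKM, a narrower range than model at 3.89 to 17.1 FPKM.

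Cxcl1, also known as KC, had 13.0, 6.14 and 31.1 FPKM in high dose, 14.7, 7.91 and 6.83 FPKM in model and 12.4, 4.84 and 2.50 FPKM in control. The 3 groups overlapped in every comparison. Its log2 difference was 1.18 ± 0.63 (SE; limma adjusted p = 0.888) between high dose and control, 0.67 ± 0.63 (SE; adjusted p = 0.878) between model and control and 0.52 ± 0.63 (SE; adjusted p = 0.724) between high dose and model. The last value was carried by high dose 3 and was -0.047 without it. Cxcl1, Cxcl2 and Cxcl3 are close relatives, and how fragments matching more than 1 of them were counted is not given in the sources used here.

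Cxcl5, also known as LIX, is a neutrophil attractant made mostly by epithelium. It was listed at 0, 0 and 0.654 FPKM in high dose, 0.0287, 0.0356 and 0.101 FPKM in model and 0.151, 0 and 0 FPKM in control, and was not tested. Scaled by relative depth, these levels stood as 0, 0, 32, 2, 2, 5, 8, 0 and 0 in that order, within 0.0155 of whole numbers. These are the smallest whole numbers that the levels allow, and any common multiple would do as well. Cxcl5 was thus detected in 5 of the 9 libraries, with the largest share of it in high dose 3.

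CXCR2 and neutrophil genes were read beside these ligands. Cxcr2 had 3.49, 1.37 and 3.34 FPKM in high dose, 0.576, 1.29 and 0.661 FPKM in model and 0.219, 1.69 and 0 FPKM in control. High dose and model did not overlap (0.98 ± 0.43, SE; limma adjusted p = 0.372), while control 2 lay above high dose 2. Its relative Cxcr1 was at most 0.765 FPKM, in model 1, and was listed at 0 in all 3 control libraries. Of 8 neutrophil genes 6 were tested. The summed level of the 8 was 192 to 1069 FPKM in high dose, 37.0 to 102 FPKM in model and 2.75 to 63.5 FPKM in control, without overlap between high dose and the other 2 groups. S100a9 and S100a8, the calprotectin subunits of neutrophils and monocytes, lay between 62.9 and 410.5 FPKM and between 74.9 and 453 FPKM in high dose. They lay between 12.5 and 55.3 FPKM and between 12.7 and 39.2 FPKM in model, and at most at 34.8 and 21.1 FPKM in control. In high dose against model 5 of the 6 did not overlap and were higher, with a list median of 2.25, beside 11.7% of all genes higher without overlap. The highest sum stood in high dose 2, the library rich in airway genes, and high dose 1 had 242 FPKM with airway genes at 16.2 FPKM. The part of airway tissue in the neutrophil sum was not tested. Ly6g, a defining neutrophil gene, stayed at or below 0.589 FPKM in all libraries. The part of neutrophil content in the levels of Cxcl1 and Cxcl2 was not tested.

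NF-kB cytokines and feedback genes, which share inducers with Cxcl1 and Cxcl2, were a further list. Of 10, 8 were tested, with a median log2 difference of 0.64 between model and control (7 higher), 0.38 between high dose and model (5 higher) and 0.84 between high dose and control (7 higher), and 0 passed. Nfkbia, the NF-kB inhibitor gene that NF-kB itself induces, had 106, 117 and 157 FPKM in high dose, 48.7, 56.2 and 50.7 FPKM in model and 55.7, 95.8 and 52.4 FPKM in control. All high dose libraries lay above all others, and the log2 difference between high dose and model was 1.26 ± 0.28 (SE; limma adjusted p = 0.189). Of the 8 tested, 1 lay higher without overlap in high dose against model, beside 11.7% of all genes. In that comparison 3 of the 8 had negative differences. Icam1, an endothelial adhesion molecule, had 28.3 to 67.0 FPKM in high dose, 25.9 to 45.1 FPKM in model and 11.1 to 46.9 FPKM in control. Tnf was at most 0.0204 FPKM in any library.

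Cxcl12, also known as SDF-1, was the most abundant ligand in all 3 model libraries. It had 24.3, 18.4 and 43.0 FPKM in high dose, 47.9, 48.8 and 40.1 FPKM in model and 23.4, 37.0 and 76.8 FPKM in control. Control 3 was the highest and high dose 2 the lowest, and the groups overlapped in every comparison. The log2 difference between high dose and model was -0.74 ± 0.44 (SE; limma adjusted p = 0.455), between high dose and control -0.58 ± 0.44 (SE; adjusted p = 0.888), and between model and control 0.16 ± 0.44 (SE; adjusted p = 0.972). The last turned to -0.23 without control 1. Endothelial genes, 6 of 6 tested, summed to 267 to 424 FPKM in high dose, 462 to 569 FPKM in model and 415 to 501 FPKM in control, and fibroblast genes to 391 to 2806, 838 to 2246 and 448 to 1558 FPKM in the same order of groups. Brown fat genes summed to 2350 to 5254, 1569 to 4744 and 1895 to 14567.5 FPKM in the same order, with the highest sum in control 3. The part of these cells and tissues in the level of Cxcl12 was not tested.

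CXCR4 and ACKR3 bind CXCL12, the second as a scavenger that does not signal through G proteins. Cxcr4 had 30.4, 8.12 and 25.9 FPKM in high dose, 37.7, 15.5 and 10.5 FPKM in model and 4.13, 26.0 and 5.15 FPKM in control. Ackr3 had 14.1, 11.7 and 36.1 FPKM in high dose, 26.6, 33.1 and 35.6 FPKM in model and 27.9, 20.1 and 56.8 FPKM in control. Both overlapped between groups in every comparison, and the Ackr3 difference between high dose and model was -0.76 ± 0.47 (SE; limma adjusted p = 0.470). Ackr1, an endothelial receptor that binds inflammatory chemokines without signalling, had 28.1, 11.4 and 8.49 FPKM in high dose, 4.54, 1.62 and 8.17 FPKM in model and 2.58, 13.4 and 4.19 FPKM in control. Its high dose and model groups did not overlap (1.56 ± 0.65, SE; adjusted p = 0.364), although high dose 3 and model 3 lay close together.

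**Figure D3:**
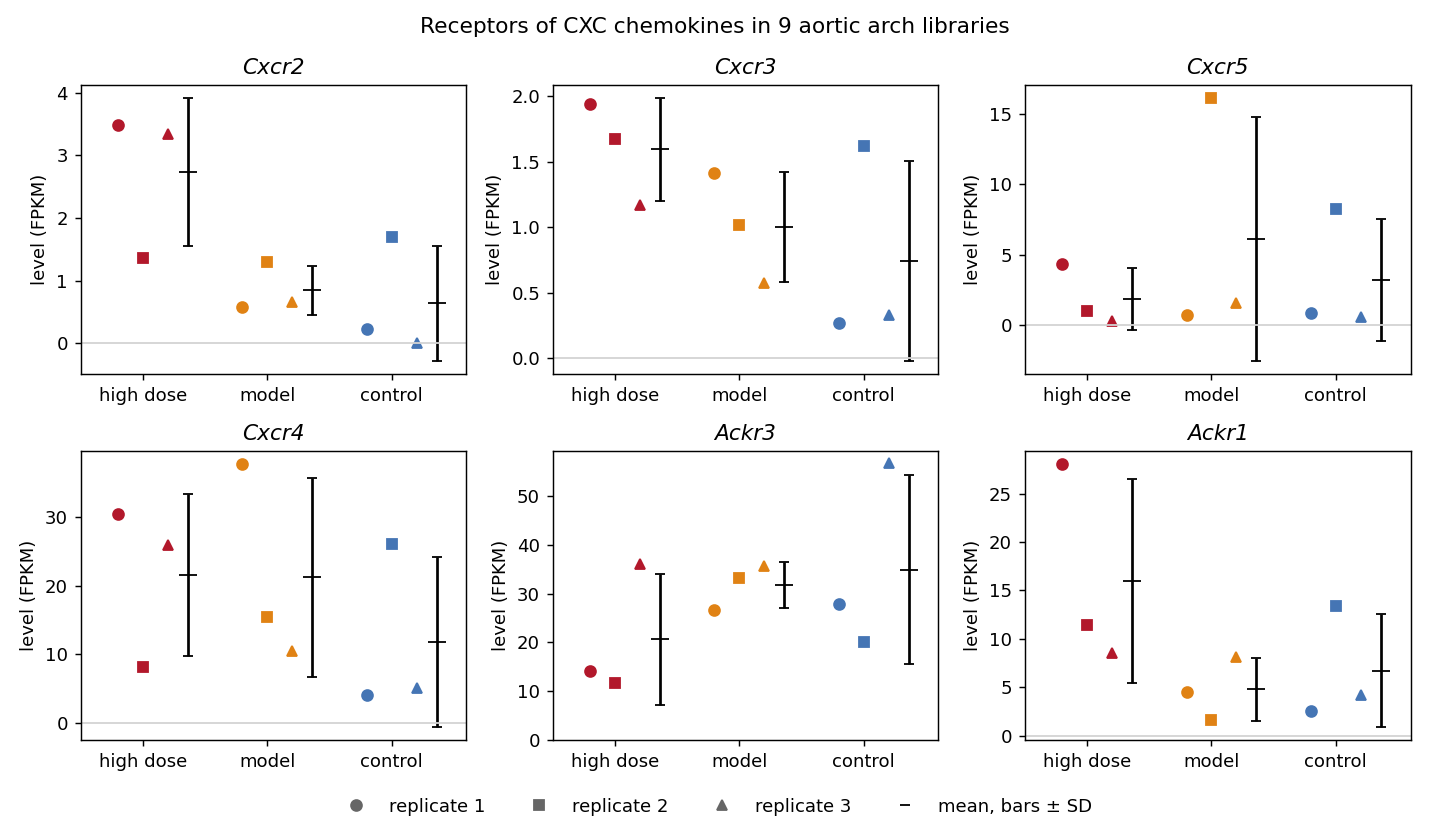
FPKM of the 6 tested receptors of CXC chemokines in each library, by group, with the mean and SD of 3 libraries at the right of each group (each panel has its own linear axis). Cxcr2 and Ackr1 lie higher in the 3 high dose libraries than in the 3 model libraries, as do 11.7% of all genes tested. Cxcr5 reaches 16.1 FPKM in model 2.

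Cxcl13, the B cell attractant, had the largest standard error of the 7 tested members. It had 84.5, 17.2 and 29.9 FPKM in high dose, 19.8, 16.0 and 5.44 FPKM in model and 57.1, 97.1 and 7.42 FPKM in control. The groups overlapped in every comparison. The log2 difference was -1.47 ± 0.94 (SE; limma adjusted p = 0.798) between model and control and 1.47 ± 0.94 (SE; adjusted p = 0.484) between high dose and model. With 1 library left out the first ran from -2.52 (without control 3) to -0.75 (without control 2), and the second was 0.85 without high dose 1 and 0.95 without model 3. High dose and control differed by 0.00082 ± 0.94 (SE; adjusted p = 1.00), with a 95% interval from -2.14 to 2.14, so that no change and a large one in either direction are both within it.

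B cell genes did not follow Cxcl13 in every library. The 8 B cell genes, all tested, summed to 147, 35.8 and 14.3 FPKM in high dose, 19.1, 124 and 27.5 FPKM in model and 12.7, 225 and 12.0 FPKM in control, with Cd79a and Cd79b the most abundant. High dose 1 and control 2 were high in both, while control 1 had 57.1 FPKM of Cxcl13 with few B cell transcripts and model 2 the reverse. Cxcr5 had 4.31, 0.976 and 0.257 FPKM in high dose, 0.688, 16.1 and 1.55 FPKM in model and 0.833, 8.20 and 0.589 FPKM in control, and was highest where the B cell sum was high. Genes of lymphoid stroma and lymphotoxin signalling were mostly low, with 3 of 9 tested and Ccl21a listed at 0 in all 9 libraries. Ltbr, the lymphotoxin beta receptor gene, had 28.6 to 75.9 FPKM in high dose, 31.1 to 36.4 FPKM in model and 25.9 to 32.0 FPKM in control, and Bst1, a stromal ectoenzyme gene, 2.35 to 7.62, 4.42 to 11.2 and 0.819 to 6.44 FPKM in the same order of groups. Mesothelial genes, which mark the lining of the chest cavity, summed to 19.0, 123 and 12.8 FPKM in high dose, 2.23, 95.8 and 32.1 FPKM in model and 148, 209.5 and 9.83 FPKM in control. Their part in Cxcl13 was not tested.

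Cxcl14, also known as BRAK, had 8.70, 14.2 and 51.4 FPKM in high dose, 2.76, 2.49 and 4.62 FPKM in model and 3.00, 9.72 and 16.5 FPKM in control. All high dose libraries lay above all model libraries, and control overlapped with both. The log2 difference between high dose and model was 2.24 ± 0.69 (SE; limma adjusted p = 0.282), and 1.53 without high dose 3, which held both the highest Cxcl14 and the highest fibroblast sum, 2806 FPKM. High dose 1, at 8.70 FPKM of Cxcl14, had the lowest fibroblast sum, 391 FPKM. Model 1 had a fibroblast sum of 2246 FPKM with 2.76 FPKM of Cxcl14, and control 3 had 448 FPKM with 16.5 FPKM. The part of fibroblast content in Cxcl14 was not tested. Between model and control the difference was -1.11 ± 0.69 (SE; adjusted p = 0.792) and between high dose and control 1.12 ± 0.69 (SE; adjusted p = 0.888). The first was -1.71 without control 1 and -0.64 without control 3, and the second 0.42 without high dose 3 and 0.53 without control 1.

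The remaining CXC ligands of the table were low in most libraries. Cxcl17, a mucosal chemokine, had 124 FPKM in high dose 2 and 16.4 FPKM in control 2, and at most 0.531 FPKM in the other 7 libraries. Cxcl15, the lung chemokine lungkine, had 1.94 FPKM in control 2 and was listed at 0 in the other 8. These were the libraries with 24354 and 8558 FPKM of airway and lung genes. Cxcl16, a membrane-bound ligand of CXCR6, had 0.0864 to 2.02 FPKM in high dose, 0.330 to 1.90 FPKM in model and 0 to 1.62 FPKM in control. The platelet chemokine Pf4 stayed at or below 1.66 FPKM, its neighbour in function Ppbp at or below 0.603 FPKM, and Cxcl3 at or below 0.0678 FPKM. Cxcl11 was not analysed here. Cxcr6 reached 3.02 FPKM in control 2 and at most 0.928 FPKM elsewhere, and Ackr4, a scavenger of CXCL13 among others, 2.90 FPKM in model 3.

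Across the 7 tested members, 0 passed at a limma adjusted p under 0.05 in any comparison, against 0% of all 12895 genes in each of the 3. At an unadjusted p under 0.05 there were 3 members of 7 in high dose against model (Cxcl9, Cxcl10 and Cxcl14), 2 in high dose against control (Cxcl2 and Cxcl10) and 3 in model against control (Cxcl2, Cxcl9 and Cxcl10), where all genes numbered 1729, 701 and 821. In high dose against model, 2 members lay higher and 1 lower without overlap, beside 11.7% of all genes higher and 10.9% lower. In high dose against control, 2 lay higher and 0 lower without overlap, beside 3.66% and 5.02% of all genes. In model against control, 2 lay higher and 0 lower, beside 6.91% and 9.06%. The comparisons share libraries, so their counts are not independent of each other.

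**Figure D4:**
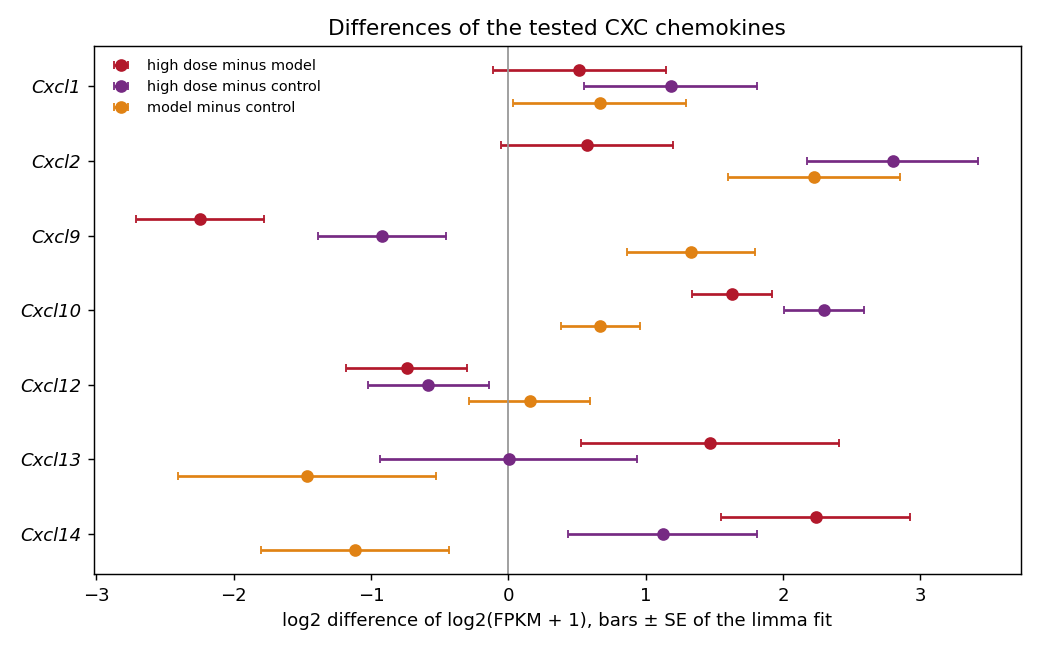
Differences of log2(FPKM + 1) for the 7 tested CXC chemokines in the 3 comparisons, with bars of 1 SE of the limma fit over 9 libraries. Cxcl10 is positive in all 3 comparisons, Cxcl9 is -2.25 in high dose against model and 1.33 in model against control, and Cxcl13 lies near 0 in high dose against control.

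The CXC receptors as a list had 6 of 9 members tested. Their median log2 difference was 0.21 between high dose and model, 0.85 between high dose and control and 0.28 between model and control, with 4 higher and 2 lower in each and 0 passing. The share of all genes that were higher was 50.1%, 50.2% and 48.7% in these comparisons. In high dose against model 2 of the 6, Cxcr2 and Ackr1, lay higher without overlap and 0 lower, beside 11.7% and 10.9% of all genes.

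Genes with the pattern most like each member over the 9 libraries were read from log2(FPKM + 1), as the 2 of highest Pearson r among all genes tested. For Cxcl10 these were Ada, adenosine deaminase, with r = 0.961 and Spearman rho = 0.917, and Bhlhe40, a transcriptional repressor, with r = 0.927 and rho = 0.883. For Cxcl9 they were Sepsecs (r = 0.974, rho = 0.967) and St13 (r = 0.964, rho = 0.933). For Cxcl2 they were Gnrh1 (r = 0.875, rho = 0.900) and the neutrophil gene S100a9 (r = 0.873, rho = 0.817). For Cxcl1 they were Large (r = 0.886, rho = 0.850) and Ctla2a (r = 0.870, rho = 0.800). Cxcl12 was most like Hsd3b7 (r = 0.959, rho = 0.950) and Reep3 (r = 0.926, rho = 0.967), Cxcl13 like Vps28 (r = 0.961, rho = 0.950) and Rhobtb3 (r = 0.954, rho = 0.983), and Cxcl14 like Nfia (r = 0.957, rho = 0.950) and Rnf113a1 (r = 0.935, rho = 0.900). These are the best of 12895 genes over 9 libraries that share groups and admixed tissue, and they are given as a description only.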

How the data were processed

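The authors deposited FPKM values for 21989 genes in 9 libraries. The submitters' processing notes name GRCm38.p5 and mm10 as genome builds. Which tools aligned and counted the fragments, and whether strand was used, is not given in the sources used here. Columns were matched to sample titles by name and replicate number. No counts were used, so no count model was run and no counting interval is given.

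Differences were tested with limma 3.58.1 (R 4.3.3) on log2(FPKM + 1), all 9 libraries in 1 fit, with 1 mean for each group, a trended empirical Bayes variance and two-sided p-values, adjusted by Benjamini-Hochberg over 12895 genes with at least 1 FPKM in at least 3 libraries. Values are FPKM per library, and errors are standard errors of the fit. The procedure was tested on simulated data. Tables and figures used Python 3.11.15, pandas 2.3.3, numpy 2.4.6 and matplotlib 3.10.9. Positions came from GENCODE on GRCm38 and start-site windows from RefSeq on GRCm38.p6, which held 7 of the 8 members.

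Named genes were the 8 members, all genes of the receptor and other-ligand lists, the 2 most abundant of the other lists described, and the 2 most like each member. For the cell type lists other than neutrophil, T cell and B cell only sums are given. Gbp4, Irgm1, Ifng, Tnf, Ly6g and Ccl21a fall outside this rule and were named after their values were seen. Members, lists and tests were chosen with earlier results of these data known. The lists had 135 entries, of which the table held 134 and 112 passed the filter; 1 listed gene is not reported here by name. The settings varied were the pseudocount (0.1), the filter (none, or mean FPKM of 5 or more), rescaling by median ratios, the replicate number as a block, array weights, the heart list mean as a covariate, only the 2 groups compared, and each library left out.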

Additional observations from a re-analysis of the deposited data

How the results depend on the processing

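Of 357 values of the 21 member differences under 17 alternatives, 347 kept their direction and their side of the threshold, 9 changed sign and 1 passed. Array weights gave 684 genes in model against control and 6 in high dose against model, and only the 2 groups compared gave 1 in high dose against model, where the fit above called 0. Leaving out 1 library gave 0 to 45 genes in high dose against model, the 45 without high dose 3, and 0 to 0 in both other comparisons. Cxcl9 passed in model against control with array weights (1.91, adjusted p = 0.0420, range over its alternatives 0.0420 to 1.00), which weighted model 2 at 5.92 and control 3 at 0.379. Sign changes were in differences near 0 or with large spread. Cxcl1 stood at -0.094 in model against control with array weights, and in high dose against model at -0.0092 with the heart list covariate and between -0.047 and 1.04 with 1 library left out. Cxcl12 in model against control stood at -0.16 with the heart list covariate and between -0.23 and 0.61 with 1 library left out. Cxcl13 in high dose against control stood at -0.0081 with median-ratio rescaling, -0.63 with array weights and between -1.05 and 0.72 with 1 library left out. The cause was not tested.

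Cxcl10 in high dose against model ran from 1.44 to 1.87 (adjusted p from 0.0568 to 0.597) and in high dose against control from 2.11 to 2.79 (adjusted p from 0.115 to 0.999). Cxcl9 in high dose against model ran from -2.65 to -1.56 (adjusted p from 0.0568 to 0.628), and Cxcl14 from 1.53 to 2.75. With 1 library left out, high dose against control ran from 0.62 (without high dose 3) to 1.71 for Cxcl1, from -1.32 to -0.50 (without control 3) for Cxcl9 and from -0.97 to -0.13 (without control 3) for Cxcl12. Cxcl12 in high dose against model was -0.48 without high dose 2, and in model against control Cxcl1 was 0.22 without control 3 and Cxcl10 0.42 without model 1. Same-numbered libraries deviated together at correlations of -0.52 to 0.31, over 0.1 in 3 of 9 pairs. Nothing in the labels pairs libraries across groups. These correlations cannot decide whether the numbers do, because the deviations are from means of few libraries that differ in admixed tissue. With the replicate block 0 genes passed in each comparison, and the Cxcl10 difference between high dose and model was 1.63 with adjusted p = 0.332. Absolute depth is unknown, which limits statements on levels near 0 such as those of Cxcl5 and Cxcl3.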

Other observations

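The mix of ligands differed between groups as a share of the summed FPKM of the 8 genes, a value free of the scaling between libraries. Cxcl12 made up 14.5%, 22.8% and 23.8% of the sum in the high dose libraries, 45.2%, 42.9% and 46.3% in the model libraries and 22.2%, 23.6% and 66.6% in the control libraries, so that high dose and model did not overlap. Cxcl13 was the largest share in high dose 1 and in control 1 and 2, at 50.5%, 54.2% and 62.0%. Cxcl14 was the largest in high dose 3, at 28.4%, and Cxcl12 in the other 5 libraries. The sum itself ran from 80.8 to 181 FPKM in high dose, 86.6 to 114 FPKM in model and 105 to 157 FPKM in control. The level of Cxcl12 over that of its receptor gene Cxcr4 was 0.797, 2.27 and 1.66 in high dose, 1.27, 3.16 and 3.84 in model and 5.67, 1.42 and 14.9 in control. These ratios were chosen after the values were seen and were not tested.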
